A study of Mus musculus with 36 samples.

Results

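Loss of DDX6 was followed in polysome-bound RNA of mouse naive embryonic stem (ES) cells, by setting 3 DDX6 degron polysome libraries (DDX6deg_poly_1 to DDX6deg_poly_3) against 3 control polysome libraries (control_poly_1 to control_poly_3). These 6 libraries were chosen by their labels from the 36 samples of the series. All 6 came from one v6.5 line (a C57BL/6 and 129S4Sv/Jae hybrid) that carried GFP-LSM14A and was kept in 2i and LIF. Both copies of its Ddx6 gene ended in an FKBP12(F36V)-HA-P2A-mCherry sequence, so the control cells carried the tagged protein too. They were harvested alongside without dTAG-13, the compound that brings about the degradation of proteins fused to FKBP12(F36V). The treatment was acute, and the tagged cells had been sorted to set up single-cell clones. Cells were exposed to cycloheximide before lysis, lysates were run on a sucrose gradient, and the fractions that held ribosomes were pooled to give the polysome RNA. A small portion of each lysate had been set aside as total RNA, and these 6 total RNA libraries were used only for comparison. So were 4 libraries of P-bodies and cytoplasm from naive ES cells and 4 from primed ES cells, which resemble a later stage of the embryo. The comparison asked which RNAs had a larger or smaller share of the ribosome-bound pool once DDX6 was gone, and whether P-body RNAs were among them.

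DDX6 is a DEAD-box RNA helicase. It binds decapping factors, the CCR4-NOT complex and LSM14A or 4E-T, and it is required for P-bodies, cytoplasmic condensates that hold RNA that is not being translated. An mRNA that several ribosomes translate at once sediments far into a sucrose gradient, and the share of an mRNA in those fractions is used as a readout of its translation.

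Values are given as CPM, counts per 1000000 counts of a library, from salmon gene counts after TMM scaling, and as log2 fold changes of DDX6 degron over control from edgeR with the standard error (SE). The polysome libraries held 13308782 to 29362195 counts, and the shallowest was control polysome 3. That library also stood apart from the other two controls, with a chi-square of 9.04 and 10.2 per degree of freedom against them, where the other two differed by 2.92. Markers of ES cells summed to 7533 to 7860 CPM in the control and 7135 to 7442 CPM in the DDX6 degron libraries, whereas the 4 of 10 feeder fibroblast markers that could be tested summed to 2.79 to 4.15 and 2.64 to 3.31 CPM. The sum over 10 primitive endoderm markers was 20.5 to 24.3 CPM in all 6 libraries, and that over 6 of 10 trophoblast markers was 148.1 to 161.5 CPM. Tfap2c alone made up 125 to 137 CPM of the trophoblast sum. CPM is a share of a library, and the amount of RNA on polysomes was not measured. In these bulk libraries fewer cells with an RNA and less of that RNA per cell cannot be told apart. Each replicate was grown on plates of its own per the study's methods, so p-values measure the spread between cultures of the tagged line. The number of clones behind the replicates is not stated.

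After DDX6 loss, 666 of 15625 tested genes (4.26%) changed in polysome RNA at an edgeR adjusted p under 0.05. Of these, 298 (1.91% of the tested genes) were higher and 368 (2.36%) were lower. The changes were small. The median was 1.24-fold among the higher genes and 0.847-fold among the lower genes, and 75 of the 666 genes moved by 0.5 or more on the log2 scale. No called gene with a mean of at least 10 CPM moved by 1 or more. The 13 called genes that did were rare, with means up to 5.33 CPM. The most abundant of them was Derl3, a component of the degradation pathway of the endoplasmic reticulum, at 3.04, 3.67 and 3.15 CPM in the control and 8.30, 7.29 and 6.52 CPM in the DDX6 degron libraries (log2 fold change 1.15 ± 0.14 (SE), edgeR adjusted p = 0.00064). Several others, such as Duxbl1 and Zfp433, belong to families of near-identical copies between which salmon divides reads, were listed at 0 in most libraries, and are given here as uncertain. Among the 14673 protein-coding genes tested 288 rose and 362 fell, and among the 763 long noncoding RNAs tested 6 rose and 4 fell. The counts depended on the libraries: without control polysome 3 they rose to 410 higher and 541 lower genes, and without control polysome 1 they dropped to 88 and 91. With libraries scaled on cytosolic ribosomal protein genes in place of TMM, 32 genes were higher and 109 lower, so the balance between directions rests on the scaling, which moved the median of all genes from 0.0062 to -0.049 on the log2 scale.

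**Figure D1:**
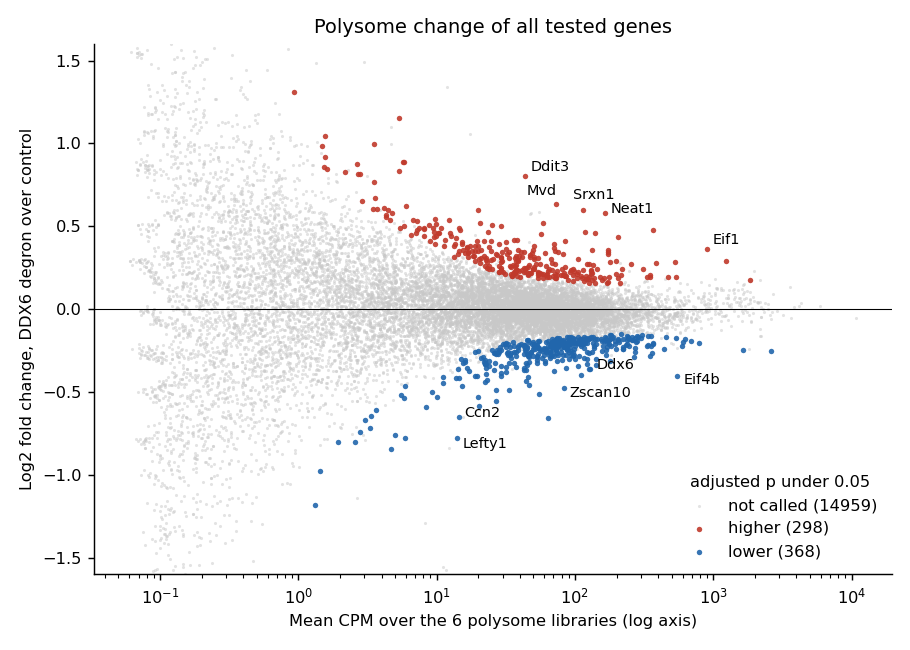
Each point is one of the genes tested in polysome RNA, placed by its mean CPM over the 6 libraries (log axis) and its log2 fold change of DDX6 degron over control; red and blue points passed an adjusted p of 0.05 and grey points did not. The 149 genes beyond 1.6 on the vertical axis are not drawn; among genes above 10 CPM the called changes stay under 1, with Ddit3 highest and Lefty1 lowest.

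Among genes with a mean of at least 10 CPM whose groups did not overlap, the largest increase was that of Ddit3. Ddit3, which encodes the stress-induced transcription factor CHOP (chr10:127290774-127296288 in GRCm38), measured 27.3, 32.7 and 35.2 CPM in the control and 55.2, 53.7 and 57.04 CPM in the DDX6 degron libraries (log2 fold change 0.80 ± 0.072 (SE), edgeR adjusted p = 4.3e-05). Mvd, which encodes mevalonate diphosphate decarboxylase of the cholesterol pathway (chr8:122433601-122443422), measured 54.8, 57.2 and 59.00 CPM and 90.8, 89.3 and 84.9 CPM, respectively (log2 fold change 0.64 ± 0.048 (SE), edgeR adjusted p = 7.8e-06). The groups were far apart for both genes relative to the spread within them. Lrp8, a receptor for reelin and apolipoprotein E, went from 16.6, 14.9 and 16.5 CPM to 25.1, 24.5 and 22.4 CPM (log2 fold change 0.60 ± 0.076 (SE), edgeR adjusted p = 0.00066). Srxn1, the sulfiredoxin that restores oxidised peroxiredoxins (chr2:152105516-152111376), went from 91.6, 92.4 and 88.6 CPM to 134, 139 and 139.7 CPM (log2 fold change 0.60 ± 0.043 (SE), edgeR adjusted p = 7.8e-06). Its spread within each group was far smaller than the gap between them. Neat1, a nuclear long noncoding RNA that scaffolds paraspeckles (chr19:5824708-5845478), was at 132, 154 and 111 CPM in the control and 185, 214 and 199 CPM in the DDX6 degron libraries (log2 fold change 0.58 ± 0.085 (SE), edgeR adjusted p = 0.0018). It was counted in the ribosome-bound pool although it is a nuclear RNA. The 5 other genes at the top were Rassf1, Trib3, Ubap1l, Cbr3 and Chac1, with log2 fold changes of 0.50 to 0.54.

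Of the genes chosen by the same rule, Lefty1 decreased most. Lefty1 (chr1:180935022-180938400), a secreted inhibitor of Nodal, measured 18.9, 16.1 and 18.4 CPM in the control and 11.98, 9.35 and 9.57 CPM in the DDX6 degron libraries (log2 fold change -0.78 ± 0.11 (SE), edgeR adjusted p = 0.0012). Ccn2 (chr10:24595442-24598683), a matricellular protein also called CTGF, measured 16.7, 17.5 and 18.6 CPM and 11.1, 10.2 and 12.6 CPM (log2 fold change -0.65 ± 0.095 (SE), edgeR adjusted p = 0.0018). Every DDX6 degron value of both genes lay below every control value, as the rule required. Over all tested genes, 23.5% had groups that did not overlap. Zscan10 (chr17:23600856-23611019), a zinc finger factor of ES cells, measured 97.6, 96.8 and 97.1 CPM in the control, a spread of under 1 CPM, and 67.8, 72.2 and 69.1 CPM in the DDX6 degron libraries (log2 fold change -0.48 ± 0.044 (SE), edgeR adjusted p = 4.3e-05). Mep1b, which encodes a metalloprotease subunit, went from 30.4, 32.4 and 32.5 CPM to 19.9, 22.5 and 22.4 CPM (log2 fold change -0.56 ± 0.066 (SE), edgeR adjusted p = 0.00042). Among the others were Lefty2, the homeobox gene Nkx1-2, the zinc finger gene Sp8, the LIM protein gene Ajuba and the phosphatase gene Ptpn14, at -0.59 to -0.49. Sp8 had the weakest call, with an edgeR adjusted p of 0.031. The plot of single libraries shows 19 of these genes.

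**Figure D2:**
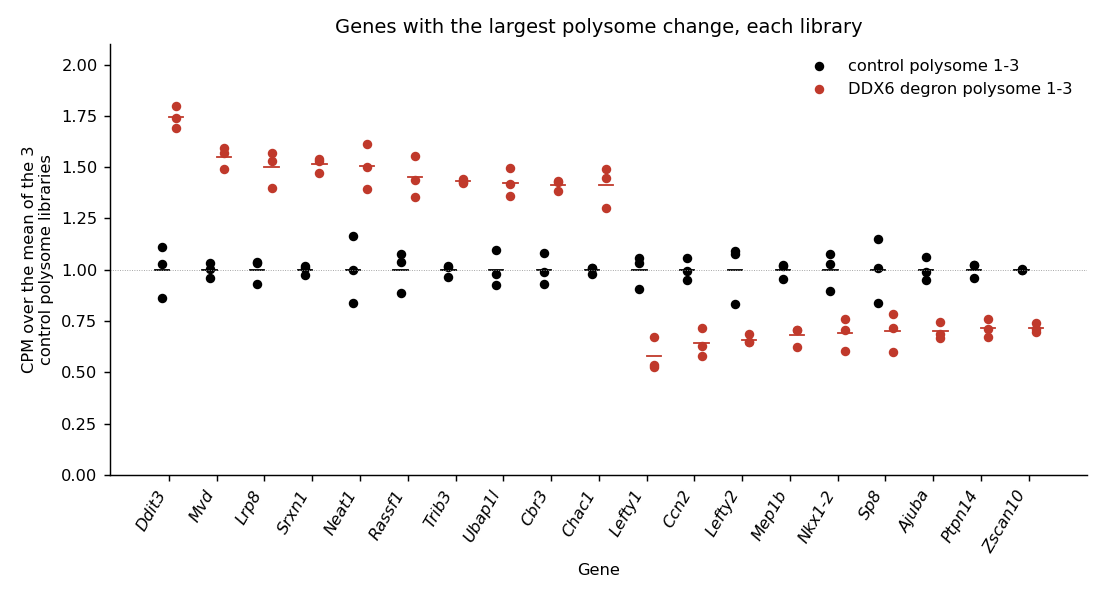
CPM of each library divided by the mean of the 3 control polysome libraries, for the 10 genes with the largest increase and 9 of the 10 with the largest decrease; black points are control and red points DDX6 degron libraries, and short lines are group means. For each gene the 3 red points lie on one side of the 3 black points, as the choice of genes required. The spread among controls is widest for Neat1 and Sp8.

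Ddx6 itself (chr9:44604892-44640731) was lower in polysome RNA. It measured 159, 147 and 131 CPM in the control and 110.2, 113 and 117 CPM in the DDX6 degron libraries (log2 fold change -0.36 ± 0.059 (SE), edgeR adjusted p = 0.0037). The degron acts on the protein, so the level of the mRNA does not check whether the protein was removed. Among 25 genes listed as P-body and decapping factors, 1 rose and 2 fell, against 1.91% and 2.36% of all tested genes. Their median was -0.022, against 0.0062 over all tested genes. Besides Ddx6, Dcp2, the catalytic subunit of the decapping enzyme, fell from 300.1, 291 and 295 CPM to 247, 249 and 256 CPM (log2 fold change -0.24 ± 0.041 (SE), edgeR adjusted p = 0.0052). The listed gene that rose was 4933434E20Rik, by 0.24 ± 0.048. Neither these data nor the study give this gene a role in P-bodies or decapping, so its rise is not read as that of such a factor. Lsm14a measured -0.023 ± 0.041 (adjusted p = 0.82) and Edc4, the decapping scaffold, measured 0.089 ± 0.065 (adjusted p = 0.52), both from edgeR. The GFP-LSM14A of this line came from an added construct and not from the Lsm14a gene itself. Of 19 deadenylase genes of the CCR4-NOT and related complexes, Cnot4 alone was called, at -0.28 ± 0.063. That call was lost without DDX6 degron polysome 1 or control polysome 1 or 2.

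Among genes of the eIF2 alpha kinase and ATF4 response, every call was upward. This response lowers general initiation by phosphorylation of eIF2 alpha while Atf4 and its amino acid and stress targets are made. Of 29 genes, 10 were higher and 0 lower, where 1.91% of all tested genes were higher, and the median log2 fold change was 0.17. Atf4 itself was at 471, 480.4 and 470.0 CPM in the control and 564, 576 and 591 CPM in the DDX6 degron libraries (log2 fold change 0.28 ± 0.042 (SE), edgeR adjusted p = 0.002). Trib3, a pseudokinase induced downstream of ATF4 and CHOP, was at 49.00, 46.6 and 49.2 CPM and 68.97, 68.7 and 69.7 CPM (log2 fold change 0.52 ± 0.048 (SE), edgeR adjusted p = 4.3e-05). The groups were well separated for both. Chac1, a glutathione-degrading enzyme, went from 24.4, 23.6 and 24.4 CPM to 31.3, 34.8 and 36.00 CPM (log2 fold change 0.50 ± 0.064 (SE), edgeR adjusted p = 0.00071), and Nupr1, a stress-induced nuclear protein, from 57.1, 58.9 and 68.6 CPM to 84.1, 77.6 and 79.05 CPM (log2 fold change 0.39 ± 0.062 (SE), edgeR adjusted p = 0.0029). Vldlr, Stc2, Ddit4, Psph and Mthfd2 also rose, by 0.19 to 0.51. The aminoacyl-tRNA synthetase genes and Asns were not called, with Asns at -0.016 ± 0.055 (edgeR adjusted p = 0.92). The count was 6 without DDX6 degron polysome 3 and 7 to 11 without any other single library, and it was 4 with ribosomal protein scaling.

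A CARE, the composite element that ATF4 binds, was looked for in the 250 bases before each start as TGATG, any 1 base and AA on either strand. It was found for 8 of the 26 genes of this list that had a promoter sequence, and in 3.45% of all 32851 promoters. Of its holders Chac1, Vldlr and Nupr1 were called, and Asns, Slc7a11, Gars, Aars and Fgf21 were not. The stretches around it are shown for Chac1 and Nupr1, both called higher, with the matched bases in capitals (RefSeq, GRCm38.p6). The match is a description of the letters and not evidence of binding.
Chac1, chr2:119351024-119351081, plus strand: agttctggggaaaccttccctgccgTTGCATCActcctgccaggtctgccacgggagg
Nupr1, chr7:126625548-126625605, minus strand: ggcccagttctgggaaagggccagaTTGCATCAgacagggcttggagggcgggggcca
In both genes the element lies on the opposite strand, starting 193 and 110 bases before the start.

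Several chaperones and folding factors of the endoplasmic reticulum rose. Of 30 genes of endoplasmic reticulum and heat shock chaperones and folding factors, 9 rose and 1 fell, against 1.91% and 2.36% of all tested genes. The list median was 0.11. The higher genes other than Hspa4l act in the endoplasmic reticulum or its stress response. Hspa5, the BiP chaperone of the endoplasmic reticulum, measured 114, 111 and 128 CPM in the control and 164, 158 and 162 CPM in the DDX6 degron libraries (log2 fold change 0.46 ± 0.053 (SE), edgeR adjusted p = 0.00032). Xbp1, the transcription factor of the unfolded protein response, measured 101, 99.6 and 94.9 CPM and 131, 135 and 144 CPM (log2 fold change 0.47 ± 0.047 (SE), edgeR adjusted p = 0.00011). Manf, a secreted protein induced by stress of that organelle, measured 168, 174 and 184 CPM and 240.2, 231 and 240.1 CPM (log2 fold change 0.44 ± 0.045 (SE), edgeR adjusted p = 0.00015). In each of these genes every DDX6 degron library lay above the highest control library, as in 295 of the 298 higher genes. Herpud1 rose by 0.41 ± 0.066, and Dnajb9, Dnajb11, Sdf2l1 and Creld2 rose by 0.20 to 0.38. The remaining higher gene was Hspa4l, a cytosolic relative of Hsp110, at 2.45, 1.72 and 1.77 CPM and 4.15, 3.31 and 2.87 CPM. The cytosolic Hsp70 gene Hspa8 was the member that fell, from 2766, 2822 and 2990.1 CPM to 2463, 2340.5 and 2392 CPM (log2 fold change -0.25 ± 0.047 (SE), edgeR adjusted p = 0.008), and Hspd1, Hsp90ab1 and Hspa4 had values of -0.21 to -0.17 without a call. Without DDX6 degron polysome 1 or 2 or control polysome 1 the count of higher genes was 5, and with ribosomal protein scaling it was 3. The count of lower genes was 4 with DESeq2, 3 without DDX6 degron polysome 1 or control polysome 2, and 0 without DDX6 degron polysome 2 or 3.

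The ER stress element was searched as CCAAT, any 9 bases and CCACG on either strand within 250 bases before the start. It occurred in 7 of the 25 listed genes with a promoter sequence and in 0.113% of all promoters. Of the 239 higher genes with a promoter sequence 4 held it, and of the 300 lower genes 0. The 2 called members of the list that held it are shown with the element in capitals, since both are known targets of this response (RefSeq, GRCm38.p6).
Hspa5, chr2:34772000-34772068, plus strand: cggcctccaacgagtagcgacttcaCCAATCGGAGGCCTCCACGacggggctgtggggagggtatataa
Creld2, chr15:88819495-88819563, plus strand: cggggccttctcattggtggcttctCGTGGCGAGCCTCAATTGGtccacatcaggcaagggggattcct
The element of Hspa5 starts 65 bases and that of Creld2 126 bases before the start. Creld2 measured 84.97, 76.8 and 77.9 CPM in the control and 96.96, 87.5 and 90.1 CPM in the DDX6 degron libraries.

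Cholesterol genes gave the highest count of any list. The pathway runs from acetyl-CoA through mevalonate and squalene to cholesterol, and its genes are activated together by SREBP2. Of 26 genes of synthesis and uptake, 14 were higher and 0 lower, against 1.91% and 2.36% of all tested genes, with a median of 0.20. Fdps, which makes farnesyl diphosphate, measured 305, 310.1 and 309.7 CPM in the control and 449, 409.6 and 428 CPM in the DDX6 degron libraries (log2 fold change 0.48 ± 0.045 (SE), edgeR adjusted p = 4.9e-05). Lss, the lanosterol synthase, measured 49.9, 48.7 and 45.02 CPM and 66.1, 61.5 and 70.5 CPM (log2 fold change 0.45 ± 0.059 (SE), edgeR adjusted p = 0.00074). In both genes the lowest DDX6 degron library lay above the highest control, as in 295 of the 298 higher genes. Nsdhl, a sterol dehydrogenase, measured 34.3, 32.2 and 31.96 CPM and 46.8, 41.7 and 43.1 CPM (log2 fold change 0.42 ± 0.06 (SE), edgeR adjusted p = 0.0017). Pmvk, Sc5d, Dhcr7, Fdft1, Mvk, Acat2, Insig1, Idi1 and Msmo1 rose by 0.20 to 0.41. Hmgcs1, an enzyme early in the pathway, and Sqle, the squalene epoxidase, were not called, with Hmgcs1 at 0.043 ± 0.054 (adjusted p = 0.74) and Sqle at -0.09 ± 0.047 (adjusted p = 0.33) in edgeR. The count was 9 without DDX6 degron polysome 3, 11 to 14 without any other single library, and 4 with ribosomal protein scaling. A sterol regulatory element written as TCAC, any 1 base and CCAC was found in 1 of 18 promoters of the list and in 1.05% of all promoters.

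Targets of NRF2, the factor that activates antioxidant genes, were listed only after Srxn1 and Cbr3 had been seen among the most increased genes, and their count is a description. Of 28 genes, 9 rose and 0 fell, against 1.91% and 2.36% of all tested genes, with a median of 0.11. Sqstm1, the autophagy receptor p62, measured 118, 114 and 115 CPM in the control and 158, 143 and 144 CPM in the DDX6 degron libraries (log2 fold change 0.36 ± 0.047 (SE), edgeR adjusted p = 0.00081). Nqo1, a quinone reductase, measured 109, 109 and 116 CPM and 138, 133 and 131 CPM (log2 fold change 0.27 ± 0.045 (SE), edgeR adjusted p = 0.0037). Srxn1, Cbr3, Hmox1, Blvrb, Pgd, Fth1 and Gclm made up the other 7. The antioxidant response element, searched as TGA, any 1 base and TCAGC, was in 3 of 23 listed promoters and in 1.02% of all promoters. Of its holders Srxn1 alone was called, while Prdx1 and Osgin1 were not. It is shown in capitals for Srxn1, where it starts 45 bases before the start (RefSeq, GRCm38.p6).
Srxn1, chr2:152105454-152105512, plus strand: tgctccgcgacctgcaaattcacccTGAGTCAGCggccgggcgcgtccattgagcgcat
Txnrd1 and Gclc, also classic targets, were at 0.11 ± 0.044 and 0.047 ± 0.046 without a call. The count of higher genes was 4 without control polysome 1, DDX6 degron polysome 2 or DDX6 degron polysome 3, and 5 without DDX6 degron polysome 1. With ribosomal protein scaling it was 2.

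Several genes of the Nodal pathway were lower. Nodal signals through SMAD2 and SMAD3 and induces its own antagonists, the Lefty proteins. In a list that was also written after Lefty1 had been seen, 7 of 22 genes fell and 1 rose, with a median of -0.10 and 2.36% of all tested genes lower. Lefty2 measured 26.8, 20.5 and 26.5 CPM in the control and 15.9, 15.9 and 16.9 CPM in the DDX6 degron libraries (log2 fold change -0.59 ± 0.10 (SE), edgeR adjusted p = 0.0037). Nodal, the ligand, measured 85.8, 81.1 and 80.3 CPM and 71.7, 73.5 and 70.9 CPM (log2 fold change -0.19 ± 0.046 (SE), edgeR adjusted p = 0.027). Control polysome 2 was the lowest control for Lefty1 and Lefty2, which were both chosen by the rule that groups do not overlap. The inhibitory Smad7, the receptor gene Acvr2b and the protease gene Pcsk6 fell too, with log2 fold changes of -0.24 to -0.22, whereas Furin, another protease that cleaves Nodal, rose by 0.25 ± 0.058. Smad2, Smad3 and Smad4 were not called. The count of lower genes was 7 without control polysome 3 and 2 to 4 without any other single library.

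Target genes of YAP and TEAD, the effectors of the Hippo pathway, were likewise listed after Ccn2 had been seen. Of 28 genes, 5 fell and 0 rose, against 2.36% and 1.91% of all tested genes, with a median of -0.13. Ajuba, a LIM protein of the Hippo and microRNA pathways, measured 68.9, 64.3 and 61.6 CPM in the control and 48.4, 44.5 and 43.3 CPM in the DDX6 degron libraries (log2 fold change -0.52 ± 0.057 (SE), edgeR adjusted p = 0.00025). Ptpn14, a phosphatase that binds YAP, measured 31.8, 29.8 and 31.8 CPM and 20.95, 22.1 and 23.6 CPM (log2 fold change -0.49 ± 0.064 (SE), edgeR adjusted p = 0.00081). Amotl2, an angiomotin, measured 51.3, 51.4 and 45.6 CPM and 34.2, 40.8 and 40.3 CPM (log2 fold change -0.37 ± 0.07 (SE), edgeR adjusted p = 0.0084). Ccn1 fell by 0.25 ± 0.067 on the log2 scale, while Yap1 and Tead1 were at -0.048 ± 0.043 and -0.14 ± 0.053 without a call. The count of lower genes was 3 without control polysome 1 and 4 or 5 without any other single library. The TEAD motif GGAATG or its reverse complement stood in 9 of 22 listed promoters and in 12.6% of all promoters, in 54 of the 300 lower genes and in 31 of the 239 higher genes. The motif is shown in capitals for Ajuba and Ptpn14, the called holders with the largest decreases (RefSeq, GRCm38.p6), Ajuba holding 2 copies.
Ajuba, chr14:54577795-54577872, minus strand: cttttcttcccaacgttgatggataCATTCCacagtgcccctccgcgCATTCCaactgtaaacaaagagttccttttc
Ptpn14, chr1:189728097-189728152, plus strand: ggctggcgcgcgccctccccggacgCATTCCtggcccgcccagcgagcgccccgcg

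Several targets of p53, the tumour suppressor, were lower. Of 27 genes, 8 fell and 0 rose, against 2.36% and 1.91% of all tested genes, and the median was -0.14. Eda2r, a TNF receptor family member, measured 51.5, 50.97 and 50.7 CPM in the control and 39.4, 42.4 and 44.8 CPM in the DDX6 degron libraries (log2 fold change -0.28 ± 0.055 (SE), edgeR adjusted p = 0.011). Phlda3, an inhibitor of Akt, measured 139, 148 and 149.7 CPM and 126, 123 and 114 CPM (log2 fold change -0.26 ± 0.049 (SE), edgeR adjusted p = 0.0079). Pmaip1, which encodes the cell death protein NOXA, measured 37.8, 37.98 and 35.5 CPM and 30.2, 33.3 and 27.9 CPM (log2 fold change -0.28 ± 0.066 (SE), edgeR adjusted p = 0.026). Gtse1, Polk, Trp53inp1, Aen and Mdm2 fell by 0.15 to 0.23 on the log2 scale. Cdkn1a, the p21 cell cycle inhibitor and a classic target, measured 383, 393 and 380.3 CPM and 392.2, 417 and 395 CPM and was not called (log2 fold change 0.059 ± 0.043 (SE), edgeR adjusted p = 0.51). The count of lower targets was 10 without control polysome 3 and 2 to 4 without any other single library, and it was 1 with ribosomal protein scaling.

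Most pluripotency genes did not pass the test. Pou5f1, which encodes OCT4, measured 1611, 1630.5 and 1716 CPM in the control and 1603, 1544 and 1563 CPM in the DDX6 degron libraries (log2 fold change -0.074 ± 0.045 (SE), edgeR adjusted p = 0.42). Nanog was at -0.017 ± 0.043 (adjusted p = 0.89), Klf4 at -0.13 ± 0.049 (adjusted p = 0.15) and Zfp42 at -0.12 ± 0.047 (adjusted p = 0.2) in edgeR. Sox2 fell from 765, 739 and 722 CPM to 653, 641 and 652 CPM (log2 fold change -0.19 ± 0.043 (SE), edgeR adjusted p = 0.021). Together with Gbx2 (-0.42) and Fgf4 (-0.17), it made up the 3 called genes of 24 in the naive list, all lower. The list median was -0.071, and 2.36% of all tested genes were lower. Among 23 genes of the primed and formative state 3 fell and 0 rose, against 2.36% and 1.91% of all tested genes, with a median of -0.19. Among these were Utf1 and Zic2, at -0.25 to -0.22. Without DDX6 degron polysome 2 or 3 or control polysome 1 the naive list held 0 calls. The primed list held 1 without DDX6 degron polysome 1 or 3 or control polysome 1 or 2, and without control polysome 3 each of the 2 lists held 5 lower genes. Of 29 germ layer regulators 1 was called, Nodal, which was lower, a call lost without any single library other than control polysome 3.

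Genes of the 2-cell-like state, a rare state of ES cells that resembles the 2-cell embryo, were not called. Of 40 listed genes, 33 could be tested. In edgeR 0 were called, with 1 higher and 4 lower at an unadjusted p under 0.05, and DESeq2 called 0. Their median was -0.054 in polysome RNA and -0.16 in total RNA, where 31 were tested and 0 called. The polysome change minus the total RNA change had a median of 0.12, a description without a test. Zscan4c measured 62.7, 60.4 and 63.1 CPM in the control and 57.95, 61.4 and 61.7 CPM in the DDX6 degron libraries, and Zscan4f measured 111, 111 and 103 CPM and 101, 109 and 103 CPM. The groups overlapped in both genes, and their reads are shared with near-identical copies. Zfp352 measured 4.03, 3.52 and 3.30 CPM and 3.52, 3.65 and 3.11 CPM, a difference of -0.072 ± 0.15 on the log2 scale. Dppa2, an activator of the state, was at -0.11 ± 0.047 (edgeR adjusted p = 0.23). For Zscan4c the SE of 0.048 was smaller than that of Zfp352, which was 0.15.

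**Figure D3:**
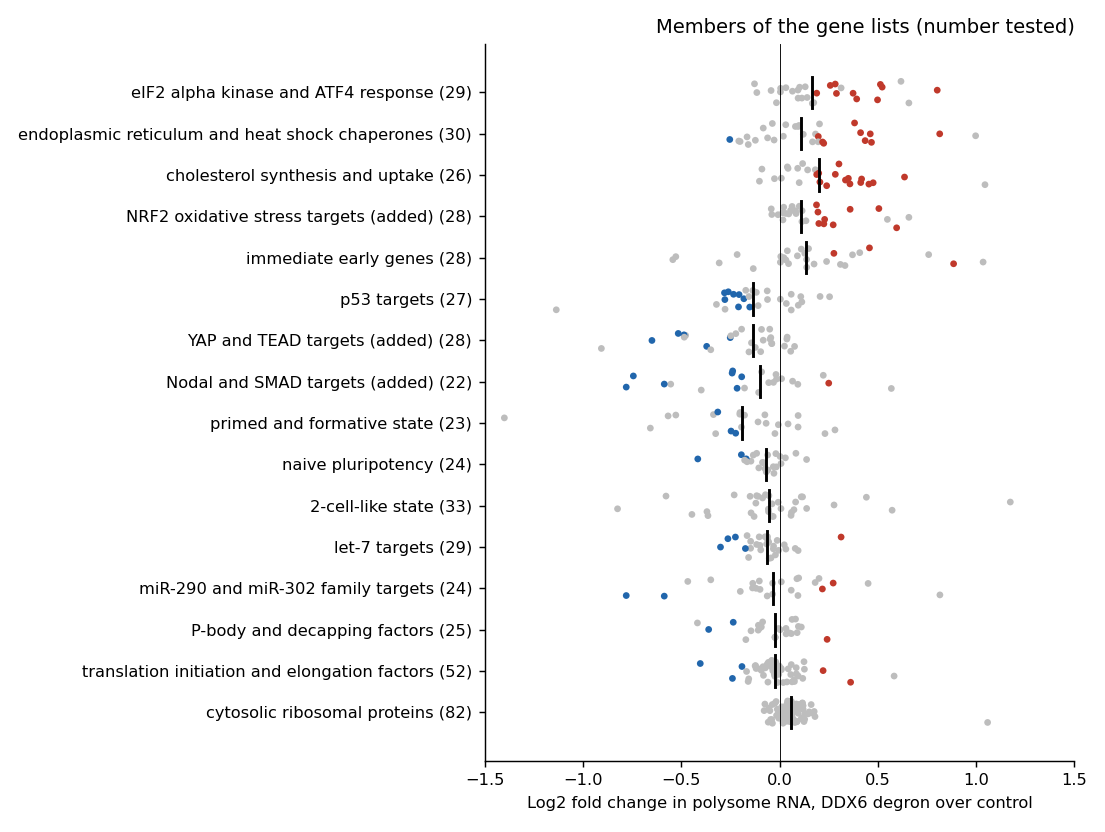
Log2 fold changes in polysome RNA of the members of 16 gene lists, one point per tested gene with the number tested in brackets; red and blue points were called higher and lower, grey points were not called, and black bars are list medians. The 1 member beyond 1.4 is drawn at the edge; the bars of the ATF4, chaperone, cholesterol and NRF2 lists lie above 0 and those of the p53, YAP, Nodal and primed lists below 0.

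In the translation machinery a few factors changed and the ribosomal proteins did not pass the test. Eif4b, the cofactor of the helicase eIF4A and itself encoded by an mRNA with a terminal oligopyrimidine tract, measured 624, 612 and 649 CPM in the control and 487, 467 and 471 CPM in the DDX6 degron libraries (log2 fold change -0.40 ± 0.044 (SE), edgeR adjusted p = 0.00021). Eif1, which guards start codon choice, measured 784, 827 and 745 CPM and 998, 1001 and 1028 CPM (log2 fold change 0.36 ± 0.048 (SE), edgeR adjusted p = 0.00081). They moved in opposite directions, each with a clear gap between the groups. Eif1b rose by 0.22 ± 0.053, Eif3b was at -0.24 ± 0.059 and Eif3a at -0.19 ± 0.049. Of 52 factors 2 rose and 3 fell, against 1.91% and 2.36% of all tested genes. Without control polysome 1 or DDX6 degron polysome 2 or 3, 1 fell. Of 82 cytosolic ribosomal protein genes, edgeR called 0, with 16 higher and 0 lower at an unadjusted p under 0.05, and DESeq2 called 3 higher. Their median was 0.06. Without control polysome 3, 30 of them were called higher. Rps2 was at 3421, 3570.4 and 4078 CPM in the control and 3512, 3528 and 3614 CPM in the DDX6 degron libraries, with control polysome 3 the highest of the 6.

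Of 19 genes of the microRNA pathway, 4 fell and 0 rose (2 fell without control polysome 1 or DDX6 degron polysome 2 or 3), with a median of 0.036 that changed sign when libraries were scaled on ribosomal protein genes. Besides Ajuba, these were Wtip, a related LIM protein, and both subunits of the Microprocessor. The shares over all tested genes were 2.36% lower and 1.91% higher. Dgcr8 measured 86.4, 84.2 and 83.6 CPM in the control and 72.95, 73.2 and 73.2 CPM in the DDX6 degron libraries (log2 fold change -0.21 ± 0.043 (SE), edgeR adjusted p = 0.012), and Drosha measured 192, 188 and 177 CPM and 172, 156 and 161 CPM (log2 fold change -0.19 ± 0.048 (SE), edgeR adjusted p = 0.038). Ago2, the Argonaute nuclease, was at -0.10 ± 0.055 (edgeR adjusted p = 0.38). Of 28 regulators that bind 3' untranslated regions, Zfp36 rose by 0.46 ± 0.10 and Igf2bp1 fell by 0.17 ± 0.047 on the log2 scale. The count of lower regulators was 0 without any single library other than control polysome 3.

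DDX6 is recruited to microRNA targets through CCR4-NOT, and target lists were kept for the let-7 family and for the miR-290 and miR-302 families. The mature sequences are shown because members of each family share a seed, bases 2 to 8, set here in capitals (RefSeq, GRCm38.p6).
mmu-let-7a-5p: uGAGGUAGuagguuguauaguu
mmu-let-7g-5p: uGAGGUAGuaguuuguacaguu
mmu-miR-291a-3p: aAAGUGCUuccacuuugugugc
mmu-miR-294-3p: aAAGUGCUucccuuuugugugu
mmu-miR-302b-3p: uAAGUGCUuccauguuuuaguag
The last 3 share one seed although miR-302b comes from another locus. Among 29 let-7 targets 1 rose and 4 fell, against 1.91% and 2.36% of all tested genes, with a median of -0.062. Without any 1 library other than control polysome 3 the count of lower targets was 1 or 2. Cdc25a, a cell cycle phosphatase, measured 113, 108 and 110.4 CPM in the control and 89.6, 86.6 and 92.8 CPM in the DDX6 degron libraries (log2 fold change -0.30 ± 0.044 (SE), edgeR adjusted p = 0.0019), Plagl1, Mycn and Igf2bp1 fell too, and Arid3a rose by 0.31 ± 0.084, a call that was lost with DESeq2 and whichever single library was left out. Lin28a measured -0.16 ± 0.046 (adjusted p = 0.068) and Hmga2 -0.074 ± 0.15 (adjusted p = 0.85) in edgeR. Among 24 targets of the miR-290 and miR-302 families 2 rose, Dazap2 and Rhoc, and 2 fell, Lefty1 and Lefty2 (1 to 4 rose and 2 fell without single libraries), with a median of -0.035. Dazap2 measured 108, 118 and 116 CPM and 137, 144 and 132 CPM (log2 fold change 0.27 ± 0.048 (SE), edgeR adjusted p = 0.0056). Cdkn1a and Lats2, both on that list, were not called.

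The other lists held few calls, and over all tested genes 1.91% rose and 2.36% fell. Of 28 immediate early genes 3 rose and 0 fell. Atf3 rose from 4.15, 3.85 and 4.23 CPM to 7.37, 6.96 and 8.25 CPM (log2 fold change 0.89 ± 0.13 (SE), edgeR adjusted p = 0.0018) and Klf10 by 0.28 ± 0.047, the third being Zfp36, while Egr1 and Fos were not called. Of 41 cell cycle regulators 2 rose and 2 fell. Cdkn1b, the p27 inhibitor, rose by 0.25 ± 0.051, and E2f3 was lower at -0.28 ± 0.056, with 0 higher without control polysome 1 or DDX6 degron polysome 2. Of 41 chromatin regulators 3 fell and 0 rose. Trim28, the corepressor of retroelements, measured 391.9, 366 and 391 CPM in the control and 331, 307 and 305 CPM in the DDX6 degron libraries (log2 fold change -0.28 ± 0.047 (SE), edgeR adjusted p = 0.0041), and Mtf2 and Eed, both of the PRC2 complex, were at -0.18 ± 0.047 and -0.17 ± 0.043. The count was 1 without any single library other than control polysome 3, and 4 without that one. Of 12 translesion polymerase genes Polk and Rev1 were lower, at -0.21 ± 0.056 and -0.20 ± 0.047, with 0 or 1 called without any single library. Of 27 interferon response genes Trim25 was lower at -0.20 ± 0.044, a call lost without DDX6 degron polysome 2 or 3 or control polysome 1 or 2. Tet2, the 5-methylcytosine dioxygenase, was at 0.012 ± 0.053 (edgeR adjusted p = 0.94). Of 30 host genes of small nucleolar RNAs and nuclear RNAs, Neat1 alone was called, with a list median of 0.12 and 24 of 30 members above 0. DESeq2 called 3, and 6 were called without DDX6 degron polysome 1 or without control polysome 3. The 74 oxidative phosphorylation genes gave 0 calls in edgeR and in DESeq2, with 3 higher and 1 lower at an unadjusted p under 0.05. The 37 proteasome genes gave 0 calls in both, with 4 higher and 1 lower at that p. Medians were 0.0099 and 0.025 and turned negative with the ribosomal protein scaling. Gapdh measured 0.039 ± 0.051 and Actb 0.23 ± 0.073, with edgeR adjusted p-values of 0.75 and 0.092. Control polysome 3 was the lowest library for Actb, at 1529 CPM where the other 2 controls were at 1967 and 1924 CPM.

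To ask whether RNAs of P-bodies shifted on polysomes, genes were classed by P-bodies sorted from naive ES cells against cytoplasm (2 libraries each). In that comparison 3528 of 15630 genes (22.6%) were enriched in P-bodies and 2413 (15.4%) were depleted. Of the 3468 P-body-enriched genes tested in polysome RNA, 50 (1.44%) rose and 156 (4.50%) fell after DDX6 loss. Of the 2371 P-body-depleted genes, 82 (3.46%) rose and 51 (2.15%) fell, and of 8952 genes in neither class 165 rose and 160 fell. Over all tested genes 1.91% rose and 2.36% fell. Without control polysome 1 the enriched class held 14 higher and 47 lower and the depleted class 30 higher and 10 lower genes, and without control polysome 3 the counts were 82 and 193, and 107 and 98. The median log2 fold change in polysome RNA was -0.021 for the enriched, 0.025 for the depleted and 0.015 for the other genes. Set against the mean of the control libraries other than itself, the median of the enriched class was -0.01 to 0.012 in the 3 control libraries and -0.031 to -0.0077 in the 3 DDX6 degron libraries, so the groups overlapped. For the depleted class it was -0.04 to 0.019 and 0.016 to 0.033, which also overlapped, control polysome 3 being the low one. In total RNA of the same lysates the medians were -0.083, 0.066 and 0.03. Of 3455 P-body-enriched genes tested there, 12 were higher and 174 lower, and of 2357 depleted genes 65 were higher and 29 lower. Over all genes tested in total RNA, 1.24% were higher and 2.07% lower. The total RNA calls rested on single libraries, as given below. The polysome change minus the total RNA change had medians of 0.051 for the enriched and -0.044 for the depleted class. These class medians are descriptions without a test. With classes from primed ES cells, 73 enriched genes rose and 132 fell while 108 depleted genes rose and 128 fell, so that more depleted genes fell than rose, and the medians in polysome RNA were -0.0023 and 0.0016. Both classes held higher and lower genes among those described above, of which some are given here. P-body-enriched were Srxn1, Hspa5 and Eif1, which were higher. So were Eif4b, Ddx6, Dcp2, Sox2, Lefty1, Polk, Eda2r, Nkx1-2 and Cdc25a, which were lower. Depleted were Mvd, Neat1, Trib3, Atf4, Chac1 and Ubap1l, which were higher, and Ajuba, Trim28, Eif3b, Fgf4 and Trim25, which were lower.

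**Figure D4:**
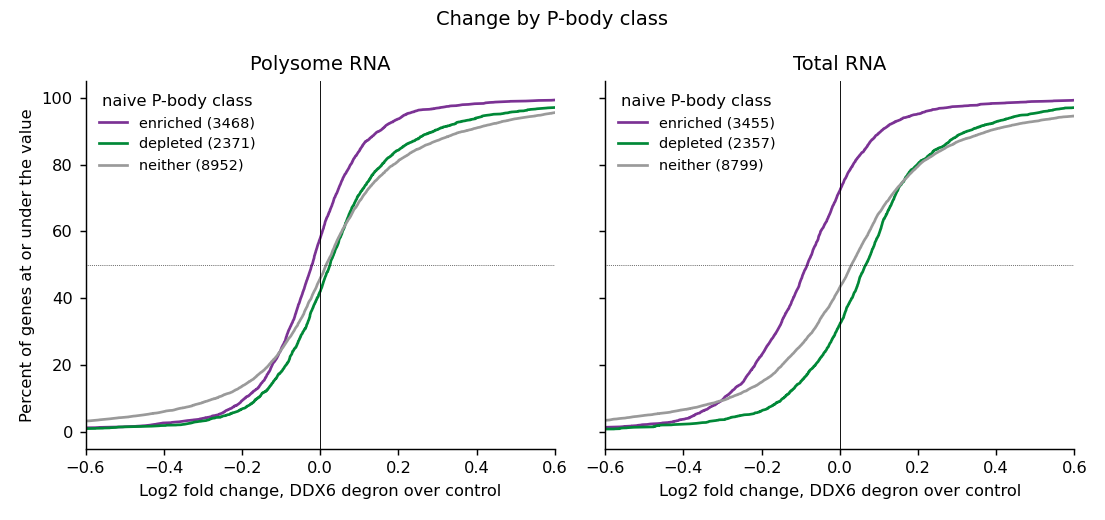
Cumulative share of genes, in percent, at or under each log2 fold change of DDX6 degron over control in polysome RNA (left) and total RNA (right), for genes enriched in naive P-bodies, depleted from them or neither. The purple curve of the enriched genes lies to the left of the green curve of the depleted genes in both panels, by a wider gap in total RNA, where the medians are -0.083 and 0.066, than in polysome RNA, where they are -0.021 and 0.025.

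The same lysates gave total RNA, in which 191 of 15380 genes (1.24%) were higher and 318 (2.07%) lower after DDX6 loss. These counts, and the overlaps that follow from them, rested on single libraries. The 509 calls became 6 without DDX6 degron total 1, 68 to 145 without any other library but control total 3, and 3373 without that one, and they became 82 with the replicate number as a block. Of the 298 genes higher in polysome RNA, 99 were also called higher in total RNA, which is 33.2% of the first and 51.8% of the second list. Of the 368 lower genes, 119 were called lower in total RNA, 32.3% and 37.4% of the lists, and 0 genes were called in opposite directions. A test of the difference between the polysome and the total RNA change called 0 of 16345 genes (0.0%) in edgeR, with 844 at an unadjusted p under 0.05, and DESeq2 called 4. For genes of at least 10 CPM the median SE of that difference was 0.095, against 0.056 for the polysome change. Without control total 3 the same test called 52 genes. It did not pair the polysome and total RNA of one lysate, and a fit blocked on condition and replicate number called 6.

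Values in polysome and total RNA can be set side by side. The ATF4 list had a median of 0.17 in polysome and 0.23 in total RNA, the chaperone list 0.11 and 0.16, the cholesterol list 0.20 and 0.16, and the p53 list -0.14 and -0.12. Ddit3 rose by 0.80 ± 0.072 in polysome and 0.82 ± 0.08 in total RNA, and Mvd by 0.64 ± 0.048 and 0.56 ± 0.079. Chac1 rose by 0.50 ± 0.064 and 0.71 ± 0.092, and Herpud1 by 0.41 ± 0.066 and 0.60 ± 0.075, with the value in total RNA the larger. Lefty1 measured -0.78 ± 0.11 and -0.53 ± 0.12, and Eif4b -0.40 ± 0.044 and -0.25 ± 0.046, with the fall in polysome RNA the larger. None of these differences passed the test, which left the polysome and total RNA libraries unpaired. The gene with the smallest adjusted p among those named, chosen after its values were seen, was Hspa8, which measured -0.25 ± 0.047 in polysome and 0.13 ± 0.045 in total RNA, a difference of -0.40 ± 0.071 (edgeR adjusted p = 0.26). Trim28 measured -0.28 ± 0.047 in polysome and -0.10 ± 0.049 in total RNA, where its edgeR adjusted p was 0.3. Zscan4c, Zscan4d and Zscan4f were at -0.28 to -0.24 in total RNA and -0.056 to -0.0069 in polysome RNA, and Tet2 at -0.24 ± 0.09 and 0.012 ± 0.053, with no call in either.

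**Figure D5:**
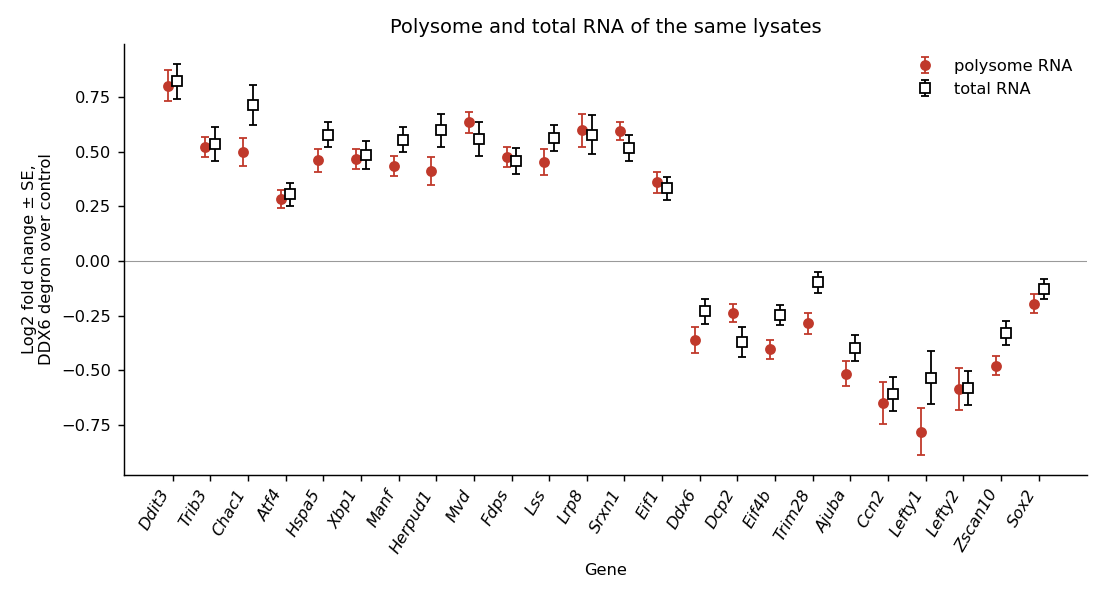
Log2 fold change of DDX6 degron over control with its SE for 24 genes in polysome RNA (red circles) and total RNA (open squares), 3 libraries per group. The genes were picked by hand from those described, so their shared sign in both fractions is not a result about all genes. Hspa8, Actb, Pou5f1 and Tet2, whose signs differ between the fractions, are not drawn. Points lie close together for Ddit3, Trib3 and Fdps and further apart for Chac1, Herpud1 and Trim28.

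The polysome change varied with transcript features. A length and GC content could be assigned to 97.8% of the tested genes from the longest GENCODE transcript. Genes were split by length into 5 bins of equal size. In the bin with the shortest transcripts, up to 1840 bases, the median log2 fold change was 0.041, and 93 genes rose and 27 fell. In the bin with the longest, from 5094 bases, it was -0.024, and 29 rose and 92 fell. The bins between ran in order, at 0.018, 0.0013 and -0.0089. Spearman's rho between length and change across the 15276 genes was -0.13, a description over genes that share the same 6 libraries. With GC content rho was 0.11, and the median went from -0.010 in the bin lowest in GC to 0.034 in the highest, where 75 genes rose and 66 fell. In total RNA the medians of the same length bins ran from 0.093 to -0.097 and those of the GC bins from -0.071 to 0.085.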

How the data were processed

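Polysome and total RNA libraries of tagged ES cells were analysed from gene-level estimated counts that the authors deposited, made with the nf-core/rnaseq pipeline and salmon on mm10 with the UCSC refGene annotation. Counts per gene were estimates and were rounded to whole numbers. The naive and primed P-body and cytoplasm libraries were deposited as estimated counts per gene, which the authors obtained with HISAT2 and featureCounts; the submitters' processing notes also name DESeq2. Deposited tables of the authors' own comparisons hold fold changes and p-values and were not used. The table with the P-body libraries held 12 further columns, of fibroblasts and reprogramming cells, which were not used.

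Genes with at least 10 counts summed over the libraries compared were fitted with edgeR 4.0.16 (quasi-likelihood, TMM scaling, only the groups compared), with Benjamini-Hochberg adjustment over all genes tested and a threshold of 0.05. The difference between polysome and total RNA changes was an interaction term in one fit of 12 libraries, without pairing by lysate. The SE of a log2 fold change is its size divided by the square root of F. Alternatives used DESeq2 1.42.0, other scalings and filters, a replicate block and each library left out. R was 4.3.3.

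Members, motifs and gene lists were chosen with earlier results of these data known; 3 lists (NRF2, YAP and Nodal) were written after their values were seen. Named genes were the 10 per direction with the largest called change, a mean of at least 10 CPM and groups that did not overlap, 25 preset genes, and up to 4 called members of each list of that mean, or the 2 highest where none was called; other members of a list that are named were chosen after their values were seen. Some genes that meet the rule are not reported here. Positions, lengths and GC content came from GENCODE M21 (GRCm38), and promoters and microRNAs from RefSeq; 12301 of the tested genes had a promoter sequence. Intervals and errors cover the spread between libraries only. Not all replicate numbers of the polysome libraries deviated together, so the numbers were not treated as pairs.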

Additional observations from a re-analysis of the deposited data

How the results depend on the processing

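The number of genes called in polysome RNA (666) was 362 when the spread was shared over all 12 libraries, 1029 with no filter on low counts and 141 with ribosomal protein scaling. It ranged from 179 to 951 when each library was left out in turn, lowest without control polysome 1 and highest without control polysome 3. DESeq2, its size factors, filterByExpr, protein-coding genes only and the replicate block kept it within 1.5 times. In total RNA the count (509) was 832 with DESeq2, 1138 with all 12 libraries, 863 with no filter and 82 with the replicate block, and ranged from 6, without DDX6 degron total 1, to 3373, without control total 3. The difference between polysome and total RNA changes (0 genes) gave 4 with DESeq2, 16 with no filter and 6 with the replicate block, and 0 to 52 without single libraries, the highest without control total 3. The cause of these shifts was not tested. The replicate block rested on numbers only. The deviations of control and DDX6 degron polysome libraries of the same number correlated at -0.15, 0.32 and 0.083, and 1 of the 3 control libraries correlated best with its own number; the block called 321 higher and 396 lower genes in polysome RNA. The median polysome change of P-body-enriched genes (-0.021) was -0.0023 with primed classes and -0.075 with ribosomal protein scaling, and -0.031 to -0.012 without single libraries. That of P-body-depleted genes (0.025) was 0.056 with the stricter class, 0.0016 with primed classes, -0.029 and so opposite in sign with ribosomal protein scaling, and 0.016 to 0.031 without single libraries; the values under these fits of the polysome change were added after seeing the data. Of 100 named genes 68 were called, 30 of them in every alternative that tested them, and 0 changed sign with a call; 33 calls were lost with ribosomal protein scaling, 14 with all 12 libraries and 27 without control polysome 1. List medians kept their sign with DESeq2 size factors. Depth limits rare genes most, with libraries of 13308782 to 29362195 counts.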

Other observations

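Among rare transcripts with large called changes, Edn1 and Slc11a1 were chosen after their values were seen. Edn1, which encodes endothelin 1, measured 1.64, 1.28 and 2.69 CPM in the control and 0.796, 0.743 and 0.837 CPM in the DDX6 degron polysome libraries (log2 fold change -1.18 ± 0.31, edgeR adjusted p = 0.041). In total RNA its log2 fold change was -1.20 ± 0.35, with an edgeR adjusted p of 0.083. Slc11a1, a metal transporter, measured 0.467, 0.440 and 0.768 CPM in the control and 1.13, 1.55 and 1.26 CPM in the DDX6 degron libraries (log2 fold change 1.31 ± 0.32, edgeR adjusted p = 0.033). Its value in total RNA was 0.53 ± 0.32. The groups did not overlap for either gene, as in 23.5% of all tested genes, but each value rests on few counts.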
